A study of Mus musculus with 9 samples.

Results

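Valine-treated muscle cells with and without palmitic acid were compared in 6 of the 9 libraries of a C2C12 series, namely the 3 labelled Val+PA and the 3 labelled Valine. They were chosen by their group labels alone, and no measured value entered the choice. C2C12 is a mouse myoblast line that divides in rich serum and begins to form contractile, multinucleate myotubes when serum is withdrawn. All wells were first starved for 12 h in OPTI-MEM, a medium low in serum. In the Valine plate the branched-chain amino acid valine was then present at 0.45 mM during 36 h of culture. In the Val+PA plate valine at 0.45 mM was given over 24 h, and palmitic acid, the most common saturated fat, at 75 µM over 12 h. The labels do not say whether valine stayed in the medium with the fatty acid. If it did not, 24 h against 36 h of valine cannot be told apart from palmitic acid. The other 3 libraries, labelled Control, were collected at the end of the starvation with neither agent. Each group was 1 plate of 6 wells, 3 of which were drawn at random for sequencing. The p-values therefore measure the spread among wells of 1 plate, and plate and treatment cannot be told apart. No carrier for the palmitic acid is given in the sources used here. By its title the study asks how valine bears on fat deposition in muscle, through autophagy and the metabolism of fatty acids.

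Palmitic acid enters muscle cells through transport proteins, is joined to coenzyme A and is then burned in mitochondria, stored as triglyceride in lipid droplets, or built into membrane lipids and ceramides. Free fatty acids are also ligands of the PPAR nuclear receptors, which switch on genes of fat oxidation, fat storage and lipid transport. In excess, saturated fatty acids are known to stress the endoplasmic reticulum and to act on inflammatory and growth factor signalling. Myoblasts that leave the cell cycle switch on the sarcomere genes under Myf5, MyoD and myogenin, so that proliferation and muscle genes are informative in this line whatever the treatment.

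The 6 libraries held 31866932 to 35976589 counts, so that 1 count was worth 0.0271 to 0.032 CPM. CPM is the count of a gene divided by the size of its library after TMM scaling and is not divided by gene length. Val+PA 2 stood apart from the other 5 libraries. Relative to the mean of the Valine libraries, its log2 level followed the GC content of genes, with a Spearman correlation across genes of 0.64, against 0.111 in Val+PA 1, 0.24 in Val+PA 3 and -0.113 to 0.0661 in the Valine libraries. Genes are not independent replicates, and these correlations are a description. The typical gene was displaced from the Valine mean by 0.39 on the log2 scale in Val+PA 2, by 0.134 in Val+PA 1, by 0.199 in Val+PA 3 and by 0.0618 to 0.0694 in the Valine libraries. The wells of the Valine plate were thus much more alike than those of the Val+PA plate, and the median SD of log2 CPM over genes was 0.0999 in Valine and 0.256 in Val+PA. The latter includes Val+PA 2. Between Val+PA 1 and 3 the median absolute log2 difference was 0.18. Their counts differed by a chi-square of 23.6 per degree of freedom, against 4.43 to 6.13 between Valine libraries. Counts of gene groups include Val+PA 2 unless its absence is stated.

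**Figure D1:**
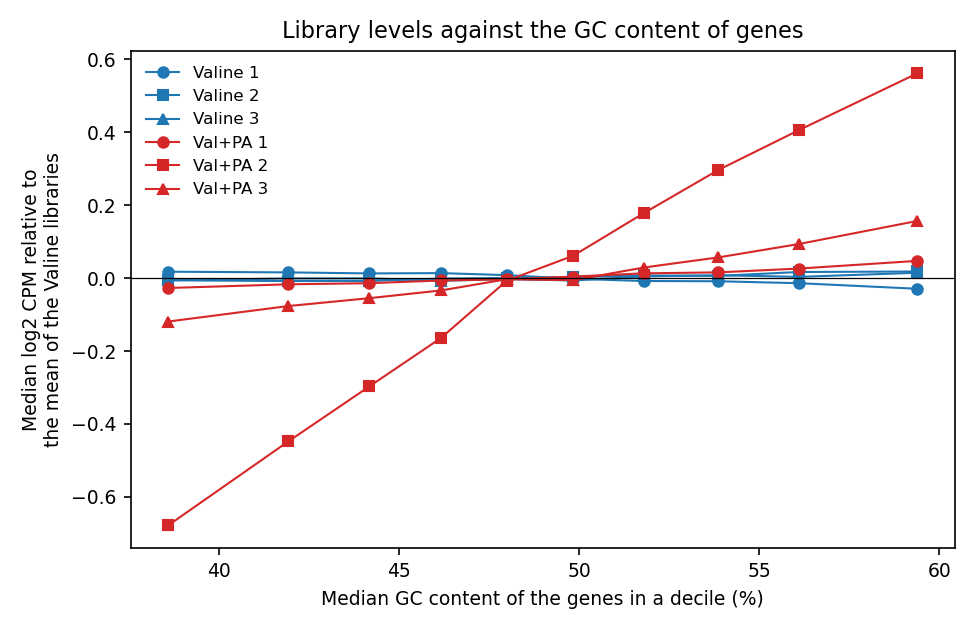
Median log2 CPM relative to the mean of the 3 Valine libraries (vertical axis) of genes in 10 groups by GC content (horizontal axis, median GC in percent), with 1 line per library. The line of Val+PA 2 runs from -0.678 in the most GC-poor group to 0.562 in the most GC-rich group, Val+PA 3 has a shallower slope in the same direction, and the other 4 lines stay near 0.

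In the wells with palmitic acid, 11 of 28 genes induced by PPAR receptors and fatty acids, 25 of 51 immediate early genes and 16 of 35 NRF2 target genes lay above all Valine wells, where 12.6% of all genes did. Of 49 mitosis genes 35, of 50 DNA replication genes 22 and of 47 sarcomere genes 15 lay below all Valine wells, where 12% of all genes did. Angptl4, a PPAR target that inhibits lipoprotein lipase, was 1.8-fold higher, Ptgs2, the inducible prostaglandin synthase, 2.07-fold higher, Grem1, a secreted BMP antagonist, 2.03-fold higher and Col8a2, a short-chain collagen, 2.53-fold higher. Ttn, the giant elastic protein of the sarcomere, was 1.5-fold lower, Myf5, a myogenic transcription factor, 1.51-fold lower and Mki67, a marker of dividing cells, 1.48-fold lower. None of these passed the main test. In bulk RNA, fewer cells of a kind and less RNA per cell cannot be told apart.

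With all libraries, edgeR's quasi-likelihood test on the 9-library fit called 0 of 18415 genes in either direction (0%) at a Benjamini-Hochberg adjusted p below 0.05. The smallest adjusted p was 0.168, and 2428 genes (13.2%) had an unadjusted p below 0.05. Without Val+PA 2 the 8-library fit also called 0 of 18974 genes, with a smallest adjusted p of 0.0509 and 1513 genes (7.97%) at an unadjusted p below 0.05. DESeq2 called 132 genes higher (0.889%) and 80 lower (0.539%) of the 14844 it adjusted with all libraries, and 64 higher (0.518%) and 59 lower (0.478%) of 12352 without Val+PA 2, while limma-voom called 0 and 3 in all. With Val+PA 2 out, the edgeR count changed with a library that is in neither group. Control 3 enters the shared estimate of the spread. Its counts differed from those of the other Control libraries by a chi-square of 129 and 141 per degree of freedom, against 12.8 between those libraries. Within Val+PA the chi-square was 107 for libraries 1 and 2, 60.6 for 2 and 3 and 23.6 for 1 and 3. With Val+PA 2 in, leaving out Control 3 still called 0 genes. Why the number of calls changed was not tested. Without Control 3 and Val+PA 2 edgeR called 604 genes, 312 higher and 292 lower. With Control 3 still in and Val+PA 2 out, library quality weights gave 131 calls and no filter on counts 270.

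A fit of the 3 Valine libraries and Val+PA 1 and 3 alone, called here the 5-library fit, does not use the Control libraries. In it edgeR called 317 genes higher (1.73%) and 266 lower (1.45%) of 18376, and 24 of the 583 had a fold change of 2 or more. The same fit with Val+PA 2 in called 0 genes, with 2694 at an unadjusted p below 0.05. Of the 582 called genes that were also in the table of all libraries, 524 had 3 Val+PA values that did not overlap the 3 Valine values, Val+PA 2 included. The calls were made on Val+PA 1 and 3, so most of this was set beforehand. Over all genes 3165 higher and 3096 lower did not overlap without Val+PA 2, and 2326 and 2213 did not with it. DESeq2 with all libraries called 192 of the 583, which is 192 of its own 212. It used the same 5 libraries among others and is no independent support. The Val+PA spread in the 5-library fit rests on 1 pair of wells. The 5-library fit is used below because it gives calls, and "passed" refers to it unless another fit is named. Since the fit was chosen for its calls, its adjusted p-values describe genes and do not hold an error rate of 0.05. A pass alone is weak support, since genes whose Val+PA wells disagree can pass. In the 5-library edgeR fit mt-Nd4, at 176.5 and 495.8 CPM in Val+PA 1 and 3, had an adjusted p of 0.0365, and Dcn of 0.0152. With the Control libraries kept and Val+PA 2 out, edgeR gave them 0.673 and 0.715. How many called genes are of this kind was not counted.

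Gene groups are described by how many measured members had all 3 Val+PA values above, or below, all 3 Valine values. Over all 18415 genes 2326 (12.6%) were higher and 2213 (12%) lower by that measure, and without Val+PA 2 the shares were 17.2% and 16.8%. With a GC trend per library removed, the shares were 11.6% and 12.7% of 18299 genes. The median log2 fold change of all genes was 0.00441 with all libraries and -0.000251 without Val+PA 2. Of 34 lists of pathway genes, those of immediate early genes, cholesterol synthesis, NRF2 targets, the integrated stress response and PPAR targets had the highest shares above the Valine values, and those of mitosis, DNA replication, sarcomere and myogenic genes the highest shares below them. Summed Control levels lay above both groups for the immediate early (3680 to 4099 CPM), cholesterol synthesis (7483 to 7691 CPM) and NRF2 lists (9643 to 10110 CPM). They lay below both for the integrated stress response list (7899 to 8590 CPM). For the PPAR list Control stood at 1592 to 1872 CPM, Valine at 1625 to 1654 CPM and Val+PA at 1784 to 2082 CPM.

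**Figure D2:**
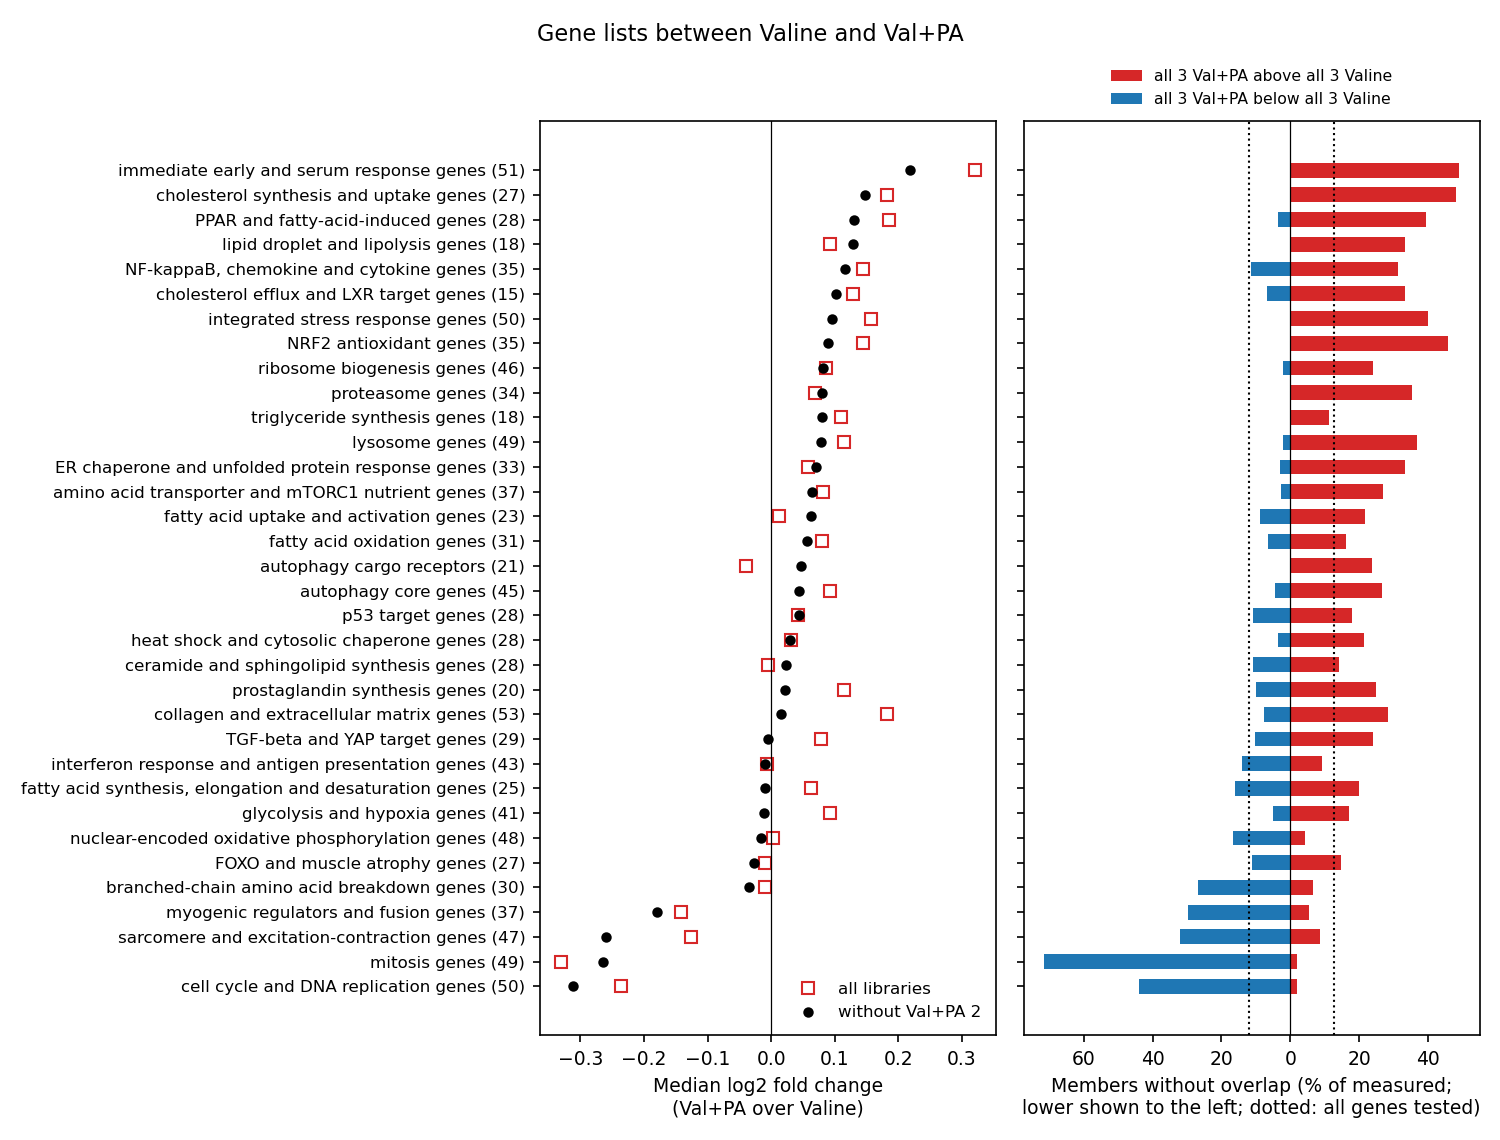
Left, median log2 fold change (Val+PA over Valine) of the measured members of 34 gene lists, with the number measured in brackets, for all libraries (open squares) and without Val+PA 2 (filled circles). Right, percent of measured members whose 3 Val+PA values lie all above (red, to the right) or all below (blue, to the left) the 3 Valine values, with dotted lines at the 12.6% and 12% of all genes tested. Mitosis genes reach 71.4% below, and immediate early genes 49% above.

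Among genes that PPAR receptors and fatty acids are known to induce, 11 of 28 measured members (39.3%) lay above the Valine values and 1 below (12 and 3 without Val+PA 2), with a median log2 fold change of 0.186 with all libraries and 0.13 without Val+PA 2, and 6 passed, all higher. Angptl4 (ENSMUSG00000002289, GRCm38 chromosome 17, 33773750 to 33781830, minus strand) measured 109.6, 105.8 and 113.8 CPM in Valine wells 1 to 3 and 204, 225 and 163 CPM in Val+PA wells 1 to 3. All Val+PA wells lay above all Valine wells, and the 3 Control wells, at 92 to 131 CPM, lay beside the Valine wells. Its log2 fold change was 0.85 (SE 0.14) with all libraries and 0.74 (SE 0.14) without Val+PA 2 (5-library edgeR fit, adjusted p = 0.00134). Plin4, a coat protein of lipid droplets, stood at 11.8, 13.1 and 13.5 CPM with valine and at 19.1, 26.6 and 20 CPM with palmitic acid added. The groups did not overlap. Plin4 had a log2 fold change of 0.61 (SE 0.10) without Val+PA 2 and passed in the 5-library edgeR fit (adjusted p = 0.00542). Pdk4, the kinase that shuts pyruvate out of the mitochondrion, measured 20.4, 16.5 and 16.4 CPM against 26.2, 21.7 and 26.3 CPM and passed (adjusted p = 0.0115). Ucp2, a mitochondrial carrier, and Acot2, a mitochondrial acyl-CoA thioesterase, passed as well. Ucp2 had a log2 fold change of 0.52 (SE 0.11) with Val+PA 2 and 0.44 (SE 0.10) without it, and Acot2 of 0.51 (SE 0.12) and 0.39 (SE 0.10). Mean Control levels were 41.8 CPM for Plin4 and 35.9 CPM for Pdk4, above both groups. They were 11.4 CPM for Ucp2 and 24.3 CPM for Acot2, below both groups. The list was not uniform. Cpt1a, the gatekeeper of mitochondrial fat oxidation, measured 108.3, 100.1 and 98.8 CPM against 120.5, 98.7 and 98.9 CPM, and Cd36, a fatty acid translocase, 1.39, 0.93 and 1.32 CPM against 1.14, 0.769 and 0.896 CPM. The values of both overlapped between the groups. Pdk4 was also the member with the smallest p of the FOXO and muscle atrophy list, of which 4 of 27 members lay above and 3 below (6 and 4 without Val+PA 2).

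Of 23 uptake and activation genes 5 lay above and 2 below, with and without Val+PA 2, led by Slc27a1, a fatty acid transporter of muscle, which measured 87.9, 97.6 and 96.8 CPM in Valine wells and 131, 167 and 132 CPM in Val+PA wells (log2 fold change 0.49, SE 0.08, without Val+PA 2, adjusted p = 0.00279 in the 5-library edgeR fit). The Control wells of Slc27a1 stood above both groups, at 179.7 to 206.4 CPM. Of 18 lipid droplet and lipolysis genes 6 (33.3%) lay above and 0 below (8 and 1 without Val+PA 2). Of 6 measured adipocyte markers 3 lay above and 0 below, with medians of 0.252 and 0.253 with and without Val+PA 2, and their part in the results on PPAR and lipid genes was not tested. Plin2, the droplet coat protein of cells without adipocyte identity, measured 531, 536 and 513 CPM against 733, 697 and 566 CPM, so that its groups did not overlap, yet it did not pass (adjusted p = 0.0683). In the list of 31 fatty acid oxidation genes 5 (16.1%) lay above and 2 below (7 and 5 without Val+PA 2), a share close to that of all genes on the higher side. Acaa2, the thiolase of the last oxidation step, was higher by 0.27 on the log2 scale (SE 0.09) without Val+PA 2 and passed (adjusted p = 0.0334), while Acadvl, the first dehydrogenase for long chains, was higher in each Val+PA well and did not pass (adjusted p = 0.147). Triglyceride synthesis had 2 of 18 members above and 0 below (3 and 1 without Val+PA 2, 3 and 3 with a GC trend removed), with Agpat3, an acyltransferase, at 130.5, 133.9 and 134.8 CPM against 143, 186 and 157 CPM. Fatty acid synthesis, elongation and desaturation had 5 of 25 above and 4 below (7 and 4 without Val+PA 2), and no member passed. Scd1, the desaturase that makes oleate-type fats, measured 2623, 2539 and 2599 CPM against 2691, 2678 and 2816 CPM. Fasn, the fatty acid synthase, stood at 173.2 and 205 CPM in Val+PA 1 and 3, within or next to the Valine range of 173.9 to 199.3 CPM, and at 324 CPM in Val+PA 2. Elovl7, an elongase, had the smallest p of that list and overlapped between the groups.

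Of 27 cholesterol synthesis and uptake genes 13 (48.1%) lay above the Valine values and 0 below (16 and 0 without Val+PA 2), the median log2 fold change was 0.182 with all libraries and 0.148 without Val+PA 2, and 3 passed. Lss, which closes the sterol ring, measured 41, 39.2 and 39.9 CPM against 47.6, 69.4 and 54.5 CPM and passed at an adjusted p = 0.0277. Sqle, which oxidises squalene, measured 469, 449 and 465 CPM against 508, 477 and 511 CPM, and Insig1, the sterol-sensing brake on the pathway, 289, 307 and 305 CPM against 342, 364 and 345 CPM. Neither passed, though their groups did not overlap. With a GC trend per library removed, 8 of the 27 lay above and 1 below. Of 15 cholesterol efflux and LXR target genes 5 lay above and 1 below (7 and 1 without Val+PA 2). Ch25h, which makes 25-hydroxycholesterol, passed (adjusted p = 0.0436) from Val+PA 1 and 3 at 3.64 and 3.77 CPM against 2.34, 2.5 and 2.02 CPM, whereas Val+PA 2 stood at 1.86 CPM, below all Valine wells. Among 28 ceramide and sphingolipid genes 4 lay above and 3 below (7 and 3 without Val+PA 2). Sphk1, which phosphorylates sphingosine, led them at 15.3, 14.4 and 15.7 CPM against 20.6, 30.6 and 24.3 CPM (adjusted p = 0.00812).

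Autophagy, which the title of the study names, delivers cytoplasm and organelles to lysosomes in double membranes that carry lipidated LC3. Of 45 core genes 12 (26.7%) lay above the Valine values and 2 below (15 and 3 without Val+PA 2), with medians of 0.0925 and 0.0439 with and without Val+PA 2, and 2 passed. Tecpr1, a tether of autophagosomes to lysosomes, measured 14.7, 13.3 and 12.1 CPM against 18.8, 30 and 18.9 CPM and passed (adjusted p = 0.0202). Map1lc3b, which encodes LC3B, measured 152.8, 149.8 and 163.6 CPM against 164, 176.4 and 176.6 CPM, a difference that did not overlap and did not pass (adjusted p = 0.288). The 21 cargo receptors had 5 members above and 0 below (6 and 1 without Val+PA 2), no member that passed, and a median that changed sign, from -0.0391 with all libraries to 0.0471 without Val+PA 2. Sqstm1, the receptor p62, overlapped between the groups at 814 to 908 CPM with valine and 889 to 1212 CPM with palmitic acid. Wdfy3, a scaffold of aggregate clearance, had the smallest p of the cargo list and measured 68.7, 69.6 and 62.4 CPM against 57.9, 68.6 and 60.7 CPM. Of 49 lysosome genes 18 (36.7%) lay above and 1 below (20 and 1 without Val+PA 2), and 5 passed. Neu1, the lysosomal sialidase, led them at 32.6, 31.5 and 29.1 CPM against 41.7, 61.7 and 50 CPM, with no overlap (log2 fold change 0.56, SE 0.13, without Val+PA 2, adjusted p = 0.00566 in the 5-library edgeR fit).

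NRF2 is the transcription factor of the antioxidant response, and 16 of its 35 measured target genes (45.7%) lay above the Valine values and 0 below (19 and 0 without Val+PA 2), with medians of 0.144 and 0.0892 with and without Val+PA 2. Of the 35, 10 passed, all higher. Srxn1, which repairs oxidised peroxiredoxins (ENSMUSG00000032802, GRCm38 chromosome 2, 152105516 to 152111376, plus strand), measured 273.6, 272 and 251.4 CPM with valine and 403, 434 and 349 CPM with palmitic acid. The lowest Val+PA well was well above the highest Valine well, and the log2 fold change was 0.57 (SE 0.10) with all libraries and 0.50 (SE 0.09) without Val+PA 2 (5-library edgeR fit, adjusted p = 0.00279). Txnrd1, a thioredoxin reductase, and Gclm, a subunit of the enzyme of glutathione synthesis, passed in the 5-library edgeR fit (adjusted p = 0.0248 and 0.0372) and in neither the 9-library edgeR fit nor DESeq2 with all libraries. Txnrd1 had a log2 fold change of 0.36 (SE 0.12) with Val+PA 2 and 0.30 (SE 0.11) without it, and Gclm of 0.24 (SE 0.12) and 0.32 (SE 0.11). Slc7a11, the cystine importer that is both an NRF2 and an ATF4 target, measured 83.5, 80.2 and 78.4 CPM against 135.5, 99 and 101.1 CPM and passed (adjusted p = 0.00838). It also led the amino acid transporter and mTORC1 nutrient list, of which 10 of 37 lay above and 1 below (12 and 5 without Val+PA 2).

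In the integrated stress response, the programme of ATF4 and the tRNA synthetases, 20 of 50 members (40%) lay above and 0 below (22 and 2 without Val+PA 2), and 5 passed. Atf3, a stress-induced repressor, measured 50, 56.2 and 51.5 CPM against 73.8, 97.2 and 70.1 CPM and passed (adjusted p = 0.00539). The median of the list was 0.291 in Val+PA 2, relative to the Valine mean, but 0.111 and 0.0654 in Val+PA 1 and 3. Of 33 endoplasmic reticulum chaperone and unfolded protein response genes 11 lay above and 1 below (16 and 1 without Val+PA 2), and Fkbp11, a secretory-pathway prolyl isomerase, passed at 22.1, 21.6 and 23.2 CPM against 31.3, 40.7 and 32.8 CPM (adjusted p = 0.00526). The proteasome list had 12 of 34 above and 0 below (16 and 0 without Val+PA 2, 8 and 0 with a GC trend removed), as Psmd8, a subunit of the regulatory particle, shows at 242.7, 259.6 and 247.3 CPM against 273.7, 271.9 and 277.6 CPM, and no member passed. Of 28 heat shock and cytosolic chaperone genes 6 lay above and 1 below (7 and 3 without Val+PA 2), and none passed. Hspa1b, the inducible HSP70, whose reads are uncertain because Hspa1a is a near-identical copy, had the smallest p of that list, at 11, 10.9 and 12.1 CPM against 14.7, 15.9 and 12.2 CPM. Among 28 p53 targets 5 lay above and 3 below (6 and 4 without Val+PA 2, 2 and 2 with a GC trend removed). Plk3, a stress-responsive kinase, passed at 20.5, 22 and 20.9 CPM against 31.9, 37.5 and 29.2 CPM (adjusted p = 0.00542), but Cdkn1a, the best-known p53 target and an inhibitor of cyclin-dependent kinases, stood at 139.5, 134.3 and 142 CPM against 143.2, 217.6 and 153.4 CPM and did not pass (adjusted p = 0.427).

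Immediate early genes answer growth factors and stress within the hour and their products curb or spread the signal. Of 51 measured members 25 (49%) lay above the Valine values and 0 below (31 and 0 without Val+PA 2), 15 passed, all higher, and the median log2 fold change was 0.321 with all libraries and 0.219 without Val+PA 2. Dusp4, a phosphatase that dampens MAP kinases, measured 125.1, 126.2 and 121.8 CPM against 193.1, 280.7 and 212.6 CPM, with a log2 fold change of 0.88 (SE 0.17) with all libraries and 0.71 (SE 0.15) without Val+PA 2 (5-library edgeR fit, adjusted p = 0.000104). Nr4a1, an orphan nuclear receptor, measured 3.59, 2.88 and 2.9 CPM against 5.48, 5.8 and 5.47 CPM (adjusted p = 0.0152). In both genes each Val+PA well lay above each Valine well. The Control wells stood at 332.1 to 496.5 CPM for Dusp4, above both groups, and at 5.195 to 5.675 CPM for Nr4a1, beside the Val+PA wells. Junb, an AP-1 subunit, and Klf10, a TGF-beta-induced repressor, also passed. Junb had a log2 fold change of 0.49 (SE 0.16) with Val+PA 2 and 0.36 (SE 0.15) without it, and Klf10 of 0.43 (SE 0.12) and 0.47 (SE 0.12). Egr1, the zinc finger factor induced by serum, did not, at 8.21, 6.69 and 6.45 CPM against 8.25, 10.9 and 7.94 CPM.

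The secreted members of this list include the EGF receptor ligands. Areg, amphiregulin (ENSMUSG00000029378, GRCm38 chromosome 5, 91139599 to 91148432, plus strand), measured 46.6, 47.3 and 47.4 CPM with valine and 72.5, 76.6 and 66.9 CPM with palmitic acid. Its Valine wells were nearly identical and all Val+PA wells lay above them, at a log2 fold change of 0.61 (SE 0.10) with all libraries and 0.57 (SE 0.09) without Val+PA 2 (adjusted p = 0.0014 in the 5-library edgeR fit and 4.29e-05 by DESeq2 with all libraries). Ereg, epiregulin, measured 17.6, 17.6 and 17.1 CPM against 36.6, 19.2 and 26.4 CPM, so that Val+PA 2 was the lowest of its group and barely above the Valine wells. Its log2 fold change was 0.65 (SE 0.19) with Val+PA 2 and 0.86 (SE 0.13) without it (adjusted p = 0.00279 in the 5-library edgeR fit). The Control wells stood at 45.05 to 50.95 CPM for Ereg, above both groups, and at 48.09 to 54.61 CPM for Areg, between the groups. Has1, a hyaluronan synthase of the cell surface and no member of the list, measured 19.3, 19.5 and 18.3 CPM against 30.8, 37.6 and 27.1 CPM (log2 fold change 0.74, SE 0.13, with all libraries, adjusted p = 0.00431 in the 5-library edgeR fit).

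Promoters are shown for 4 of the genes described, 3 that were higher and hold a motif of a signal-responsive factor and 1 muscle gene that was lower. They are the 250 bases before the start site, read 5′ to 3′ on the gene's strand, from RefSeq on GRCm38.p6, which held an entry for 63 of 86 named genes. Capitals mark the motif: the cAMP response element TGACGTCA in Areg and Has1, the AP-1 site TGACTCA in Srxn1, where it is read from the other strand, and the CArG box, the serum response element, in Actc1.
Areg, chr5:91139349-91139598, plus strand: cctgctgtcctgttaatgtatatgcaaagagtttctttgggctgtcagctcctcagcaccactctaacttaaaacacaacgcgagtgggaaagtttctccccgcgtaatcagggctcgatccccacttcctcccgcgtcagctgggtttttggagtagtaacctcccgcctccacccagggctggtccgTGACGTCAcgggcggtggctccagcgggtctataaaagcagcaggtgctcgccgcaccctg
Has1, chr17:17855189-17855438, minus strand: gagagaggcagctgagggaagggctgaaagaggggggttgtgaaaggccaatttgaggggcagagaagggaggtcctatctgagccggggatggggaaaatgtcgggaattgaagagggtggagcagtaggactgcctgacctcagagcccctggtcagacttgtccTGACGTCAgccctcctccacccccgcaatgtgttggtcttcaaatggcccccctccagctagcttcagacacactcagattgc
Srxn1, chr2:152105274-152105523, plus strand: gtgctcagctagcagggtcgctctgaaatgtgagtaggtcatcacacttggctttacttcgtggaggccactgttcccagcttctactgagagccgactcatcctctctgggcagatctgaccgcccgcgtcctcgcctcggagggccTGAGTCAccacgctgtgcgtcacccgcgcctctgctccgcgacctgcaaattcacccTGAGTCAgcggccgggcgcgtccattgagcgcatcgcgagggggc
Actc1, chr2:114052876-114053125, minus strand: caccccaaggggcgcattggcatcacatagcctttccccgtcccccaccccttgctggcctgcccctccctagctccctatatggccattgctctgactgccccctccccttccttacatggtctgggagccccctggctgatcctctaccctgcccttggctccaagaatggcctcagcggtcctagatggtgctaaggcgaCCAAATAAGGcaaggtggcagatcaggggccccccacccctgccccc
The motif begins 61 bases before the start of Areg, 83 before that of Has1, 102 and 45 before that of Srxn1 and 47 before that of Actc1. These are RefSeq starts. The stretch shown for Actc1 lies inside the gene as GENCODE M21 places it, at 114047282 to 114053548 of chromosome 2. Searched on both strands of 300 bases, 250 before to 50 after the start, the cAMP response element was in 1.79% of 32851 promoters, the AP-1 site in 5.2% and the CArG box in 1.63%, and in 4, 5 and 1 of the 77 promoters of named genes. The antioxidant response element TGACNNNGC was in 12.4% of all promoters and in 11 of the 77. The genes with a match were Srxn1, Txnrd1 and Gclm, and also Bub1, Cdkn1a, Il1rl1, Map1lc3b, Rrm2, Sphk1 and Ucp2. The PPAR direct repeat AGGTCANAGGTCA, the sterol regulatory element ATCACCCCAC and the ATF4 composite element had no match in the 77, and 0.0396%, 0.0913% and 1.77% in all promoters. The TATA box TATAAA was in 13.6% of all promoters and in 11 of the 77. Over the 14392 promoters of tested genes the shares were 2.85% for the cAMP response element, 4.22% for the AP-1 site, 1.38% for the CArG box, 14% for the antioxidant response element, 7.68% for the TATA box, 0.0278% for the PPAR direct repeat, 0.0417% for the sterol regulatory element and 1.13% for the ATF4 composite element. A match is a run of letters and was not tested as a binding site.

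Prostaglandins are made from membrane arachidonate by the cyclooxygenases. Ptgs2, the inducible one (ENSMUSG00000032487, GRCm38 chromosome 1, 150100031 to 150108227, plus strand), measured 65.2, 65.7 and 60 CPM in Valine wells and 181.8, 101.9 and 110.6 CPM in Val+PA wells. All 3 Val+PA wells were above all Valine wells, with Val+PA 1 the highest, and the log2 fold change was 1.05 (SE 0.19) with all libraries and 1.20 (SE 0.18) without Val+PA 2 (adjusted p = 0.0014 in the 5-library edgeR fit). Hpgd, which inactivates prostaglandins, went the other way at 4.62, 3.87 and 4.22 CPM against 2.63, 1.82 and 2.57 CPM (adjusted p = 0.0352). The list as a whole had 5 of 20 members above and 2 below (5 and 4 without Val+PA 2), and 2 above and 2 below with a GC trend removed. Of 35 NF-kappaB, chemokine and cytokine genes 11 lay above and 4 below (15 and 4 without Val+PA 2). Cxcl12, the chemokine that holds CXCR4-bearing cells, was among the lower ones at 46.7, 45.1 and 44.5 CPM against 29.1, 27.3 and 34.7 CPM. Its log2 fold change was -0.58 (SE 0.11) with all libraries (adjusted p = 0.192 in that fit and 0.00741 in the 5-library edgeR fit). Interferon response and antigen presentation genes showed 4 of 43 above and 6 below (5 and 8 without Val+PA 2) and no member that passed. Oasl1, an interferon-induced relative of the oligoadenylate synthetases and the member of smallest p there, lay between 0.32 and 0.835 CPM in these 6 libraries.

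Matrix and TGF-beta genes included Col8a2, which with all libraries had the largest positive log2 fold change of the named genes. Col8a2 (ENSMUSG00000056174, GRCm38 chromosome 4, 126286793 to 126314330, plus strand) measured 9.64, 9.19 and 9.35 CPM with valine and 19.4, 30.2 and 21.8 CPM with palmitic acid. The lowest Val+PA well was above the highest Valine well, and the Control wells stood at 0.668 to 1.38 CPM. Its log2 fold change was 1.34 (SE 0.20) with all libraries and 1.13 (SE 0.17) without Val+PA 2 (adjusted p = 0.000104 in the 5-library edgeR fit). In the collagen and matrix list 15 of 53 (28.3%) lay above and 4 below (16 and 8 without Val+PA 2, 12 and 7 with a GC trend removed), the median was 0.182 with all libraries and 0.0154 without Val+PA 2, and in Val+PA 1, 2 and 3 it was -0.0302, 0.46 and 0.0938 relative to the Valine mean, so that the list stood highest in Val+PA 2. Of 29 TGF-beta and YAP targets 7 lay above and 3 below (10 and 5 without Val+PA 2, 5 and 5 with a GC trend removed), while 4 passed higher and 3 lower. Pmepa1, a TGF-beta-induced inhibitor of that pathway, measured 50.8, 52.1 and 48.5 CPM against 66, 71 and 70 CPM (adjusted p = 0.00542). Grem1 (ENSMUSG00000074934, GRCm38 chromosome 2, 113746164 to 113758646, minus strand) measured 21.8, 22.2 and 22.2 CPM against 56.8, 33.3 and 44 CPM. Its Valine wells were nearly equal and its Val+PA wells all higher, by 1.02 (SE 0.17) on the log2 scale with Val+PA 2 and 1.19 (SE 0.13) without it, and it held the smallest adjusted p of the 8-library fit, 0.0509. Foxs1, a forkhead factor of perivascular and mesenchymal cells, measured 12.7, 14 and 11.2 CPM against 22.3, 27.3 and 20.7 CPM (adjusted p = 0.00279).

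**Figure D3:**
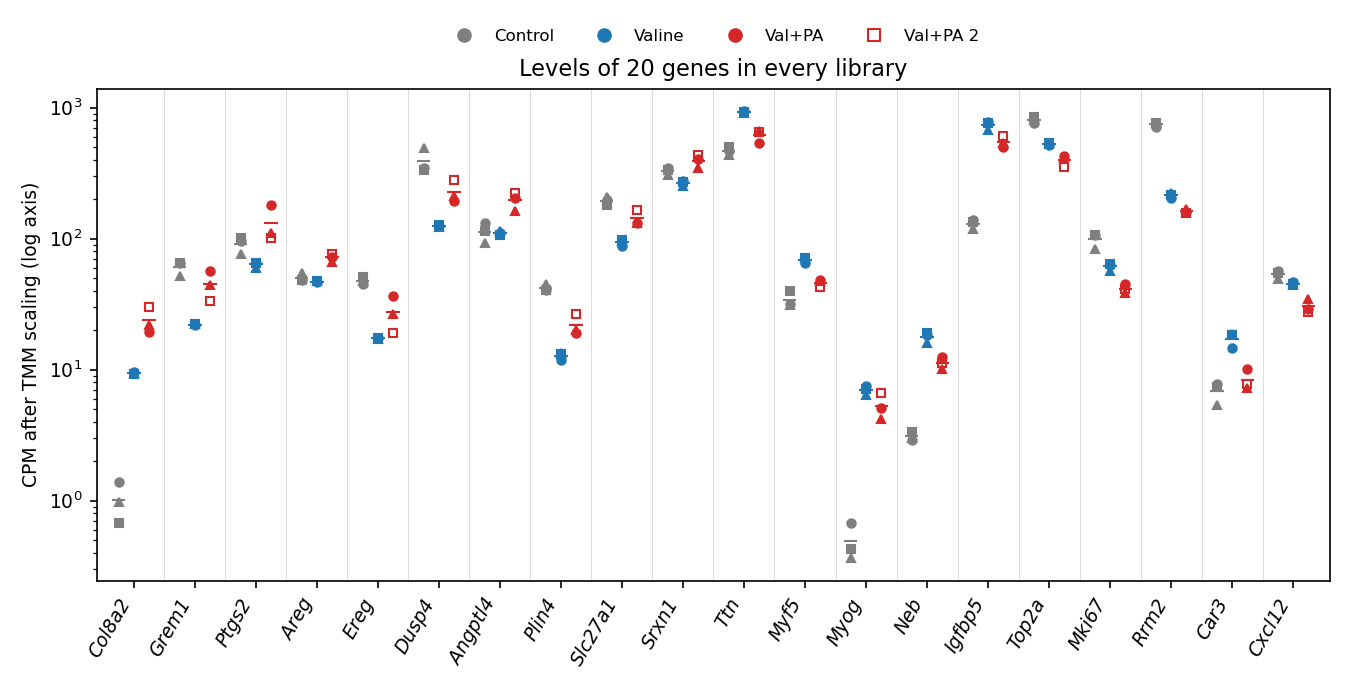
CPM of 20 genes (log axis) in every Control (grey), Valine (blue) and Val+PA (red) library, with Val+PA 2 as an open square and a bar at each group mean. Angptl4, Ptgs2, Grem1 and Col8a2 lie higher in all 3 Val+PA libraries than in all 3 Valine libraries, and Ttn, Myf5, Top2a and Cxcl12 lower, while Myog overlaps.

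Of 47 sarcomere and excitation-contraction genes 15 (31.9%) lay below the Valine values, and 4 above (23 below and 4 above without Val+PA 2), with medians of -0.126 with all libraries and -0.259 without Val+PA 2, and 8 passed lower and 1 higher. Summed over the list, the level was 4181 to 4212 CPM in Valine and 3566, 5172 and 4074 CPM in Val+PA 1, 2 and 3, so that Val+PA 2 stood highest. Ttn (ENSMUSG00000051747, GRCm38 chromosome 2, 76703980 to 76982547, minus strand) measured 942, 928 and 917 CPM with valine and 541, 657 and 662 CPM with palmitic acid, between the Valine wells and the Control wells at 437 to 497 CPM. Its log2 fold change was -0.58 (SE 0.10) with all libraries and -0.63 (SE 0.10) without Val+PA 2 (adjusted p = 0.0014 in the 5-library edgeR fit). Neb, nebulin of the thin filament, measured 18.2, 19 and 16 CPM against 12.4, 11.2 and 10.1 CPM (adjusted p = 0.00976). Actc1, the cardiac actin that early myotubes use, measured 28.8, 30.9 and 31.2 CPM against 17, 22.7 and 24.3 CPM (adjusted p = 0.0278), and Mylpf, a fast myosin light chain, had a log2 fold change of -0.60 (SE 0.20) with Val+PA 2 and -0.64 (SE 0.22) without it. All 3 were without overlap. Myh3, the embryonic myosin heavy chain, passed as lower only with Val+PA 2 out. Its Val+PA values were 6, 12.3 and 6.37 CPM against 9.24, 7.91 and 9.41 CPM, so that Val+PA 2 was the highest of all 6. Car3, a carbonic anhydrase of slow muscle that is on no list, measured 14.8, 18.2 and 18.7 CPM against 10.1, 7.81 and 7.2 CPM. Its log2 fold change was -1.04 (SE 0.18) with all libraries (adjusted p = 0.168 in that fit and 0.00447 in the 5-library edgeR fit).

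Of 37 regulators of the myogenic programme 11 (29.7%) lay below and 2 above (19 and 2 without Val+PA 2), 7 passed, all lower, and with a GC trend per library removed 20 lay below and 1 above. Myf5 (ENSMUSG00000000435, GRCm38 chromosome 10, 107482908 to 107486134, minus strand) measured 64.9, 71.4 and 71.5 CPM against 48, 42.4 and 47.1 CPM, without overlap (log2 fold change -0.59, SE 0.12, with all libraries, adjusted p = 0.00277 in the 5-library edgeR fit). Myog, the factor of terminal differentiation, measured 7.47, 7.07 and 6.45 CPM against 5.08, 6.6 and 4.2 CPM. Val+PA 2 lay within the Valine range, and Myog passed with that library out (adjusted p = 0.0368). Myod1 measured 11.2, 9.74 and 12.3 CPM against 6.19, 10.5 and 10.3 CPM and did not pass (adjusted p = 0.203). Igfbp5, which binds the IGFs that drive myoblast differentiation, measured 772, 759 and 682 CPM against 504, 605 and 542 CPM (adjusted p = 0.00277). Arrdc3, an arrestin-like adaptor that marks receptors for degradation, was lower too, at 39.8, 32.2 and 36.6 CPM against 23.3, 18.1 and 23.8 CPM (adjusted p = 0.00516).

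The label myoblast was checked against markers. Of 10 myoblast markers 9 were measured, summing to 3575 to 3764 CPM in Valine and 3420, 5413 and 4019 CPM in Val+PA 1, 2 and 3. Of the 9, 1 (11.1%) lay above the Valine values and 2 (22.2%) below, and 2 passed, both lower. Without Val+PA 2 the counts were 1 and 3, and with a GC trend removed 0 and 4. Summed over 8 myotube markers the level was 55.1 to 59.6 CPM in Valine, 41.9, 54.2 and 42 CPM in Val+PA 1, 2 and 3 and 7.93 to 12.2 CPM in Control. Of the 8, 1 (12.5%) lay below the Valine values with all libraries and 4 without Val+PA 2, and 0 above. Their part in the results on muscle genes was not tested. The 10 fibroblast and fibro-adipogenic markers summed to 1887 to 2005 CPM in Valine and 1814 to 2052 CPM in Val+PA, with 0 above and 2 below. Of 12 adipocyte markers 6 were measured, summing to 201 to 203 CPM in Valine and 188 to 213 CPM in Val+PA. The defining adipokines Adipoq, Lep and Retn had 0 counts in all libraries. Endothelial markers summed to 6.17 to 10.6 CPM and immune markers to 5.68 to 7.46 CPM over the 6 libraries, from 3 measured genes each.

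Of 49 mitosis genes 35 (71.4%) lay below the Valine values and 1 above (41 and 1 without Val+PA 2), and 24 passed, all lower, with medians of -0.331 with all libraries and -0.265 without Val+PA 2. Of 50 DNA replication and cell cycle genes 22 (44%) lay below and 1 above, rising to 37 and 1 without Val+PA 2, and 17 passed, all lower. Top2a, the topoisomerase that untangles sister chromosomes (ENSMUSG00000020914, GRCm38 chromosome 11, 98992943 to 99024189, minus strand), measured 524, 539 and 532 CPM with valine, 426, 353 and 411 CPM with palmitic acid and 765 to 844 CPM in the Control wells. Its 3 groups did not overlap, and the log2 fold change was -0.42 (SE 0.10) with all libraries and -0.34 (SE 0.07) without Val+PA 2 (adjusted p = 0.00539 in the 5-library edgeR fit). Mki67 measured 63.2, 64.4 and 56.8 CPM against 44.8, 41.6 and 38.5 CPM (adjusted p = 0.00463). Plk1, a kinase of mitotic entry, and Bub1, a kinase of the spindle checkpoint, passed in the 5-library edgeR fit (adjusted p = 0.0328 and 0.0372) and in neither the 9-library edgeR fit nor DESeq2 with all libraries. Plk1 had a log2 fold change of -0.37 (SE 0.14) with Val+PA 2 and -0.35 (SE 0.15) without it, and Bub1 of -0.37 (SE 0.13) and -0.26 (SE 0.10). Rrm2, the ribonucleotide reductase subunit of S phase, measured 204, 214.5 and 224.5 CPM against 160.8, 157.7 and 167.9 CPM (adjusted p = 0.00634). Ccne2, a cyclin of S phase entry, measured 13.2, 17 and 16.4 CPM against 11.3, 5.54 and 9.03 CPM (adjusted p = 0.026), and Mcm5, a subunit of the replicative helicase, 36.8, 44.3 and 50.6 CPM against 31.5, 40.9 and 31.2 CPM. Val+PA 2 overlapped the Valine wells in Mcm5 and not in Ccne2. The mitosis list was lowest in Val+PA 2, where its median stood at -0.459 relative to the Valine mean, against -0.24 and -0.297 in Val+PA 1 and 3. With a GC trend per library removed 36 of the 49 mitosis genes and 28 of the 50 replication genes still lay below, with 0 and 1 above.

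**Figure D4:**
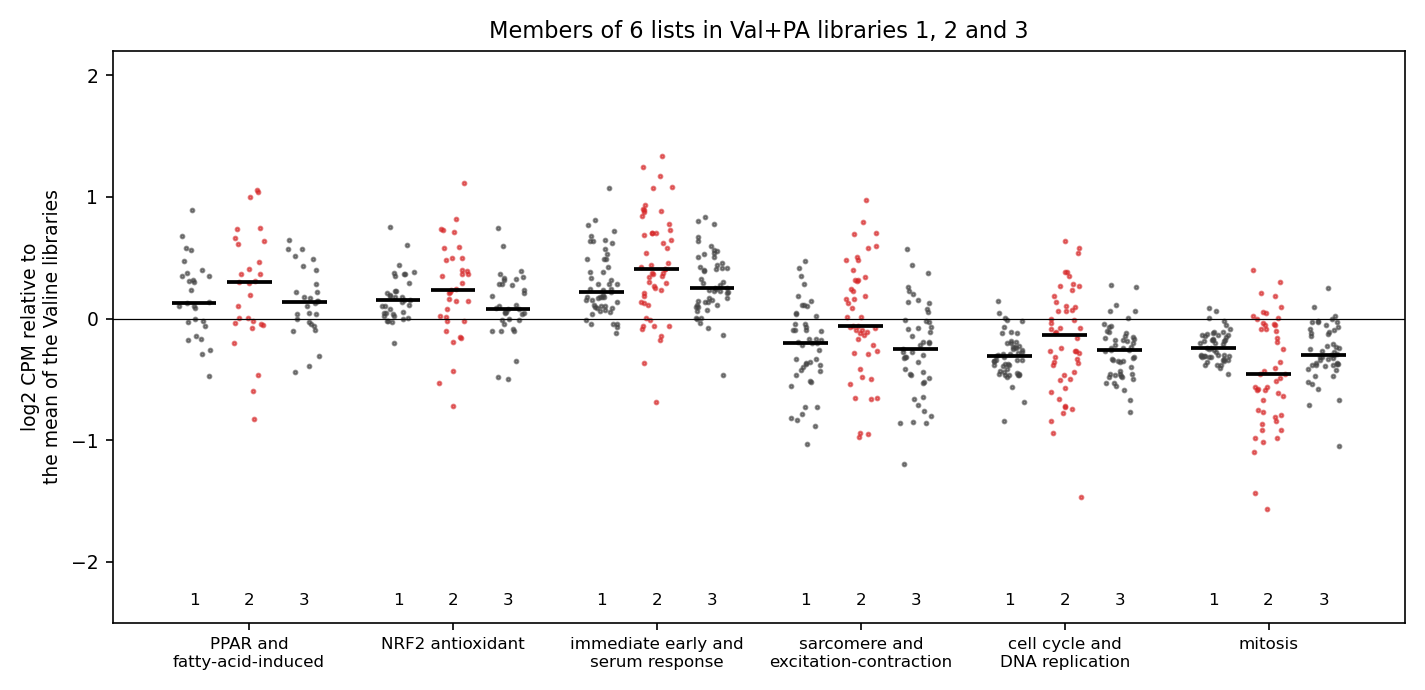
Log2 CPM relative to the mean of the 3 Valine libraries of each measured member of 6 lists, in Val+PA 1, 2 (red) and 3, with a bar at each median. The bars of the PPAR, NRF2 and immediate early lists lie above 0 and those of the other 3 lists below 0 in all 3 libraries, and the points of Val+PA 2 are the most widely spread.

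Of 41 glycolysis and hypoxia genes 7 lay above and 2 below (8 and 6 without Val+PA 2), with a GC trend removed 5 lay above and 8 below, and the median changed from 0.0924 to -0.0121 when Val+PA 2 was left out. Ankrd37, a target of the hypoxia factor, passed at 2.2, 1.72 and 1.94 CPM against 3.23, 3.04 and 3.49 CPM (5-library edgeR fit, adjusted p = 0.0372). Of 48 nuclear-encoded genes of oxidative phosphorylation 2 lay above and 8 (16.7%) below (2 and 10 without Val+PA 2), and Uqcrb, a subunit of complex III, was the 1 that passed, at 13.3, 12.2 and 13.2 CPM against 10.3, 6.18 and 7.94 CPM (adjusted p = 0.0436). Branched-chain amino acid breakdown, the route by which valine is oxidised, had 2 of 30 members above and 8 (26.7%) below with and without Val+PA 2, a median of -0.00906 with all libraries, and no member that passed. Aldh6a1, the last dehydrogenase of the valine branch, measured 17.1, 15.2 and 16.8 CPM against 13.3, 13.3 and 13.7 CPM (adjusted p = 0.148). Ribosome biogenesis had 11 of 46 above and 1 below (12 and 1 without Val+PA 2) and no member that passed, with Rcl1, a factor of ribosomal RNA cleavage, at 18.3, 19.1 and 19.6 CPM against 22.2, 25.5 and 21.6 CPM.

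Genes that report on RNA quality also differed between wells. The 13 mitochondrially encoded genes had a median of 0.106 in Val+PA 1, 1.2 in Val+PA 2 and 1.15 in Val+PA 3 on the log2 scale relative to the Valine mean, yet they did not move as one. mt-Nd4, of respiratory complex I, measured 145, 161 and 164 CPM against 176, 456 and 496 CPM, and mt-Co1, of cytochrome oxidase, 4987, 5303 and 4494 CPM against 4907, 865 and 2935 CPM. Val+PA 2 and 3 thus shared a pattern that Val+PA 1 did not have. Control 3, which had no palmitic acid, differed from Control 1 and 2 in the same directions in both genes. There mt-Nd4 stood at 1031 CPM against 285 and 257 CPM, and mt-Co1 at 1229 CPM against 3810 and 3789 CPM. Of the 13 mitochondrially encoded genes 5 (38.5%) lay above the Valine values and 1 below, and 4 passed, all higher. The part of this pattern in the other results was not tested. The 75 cytosolic ribosomal protein genes had 13 members above and 10 below. Of 7 measured nuclear and non-coding RNAs 3 lay above and 1 below.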

How the data were processed

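RNA was measured in 9 libraries, 3 each of Control, Valine and Val+PA, described as strand-specific in the labels' protocols. HISAT2, featureCounts, DESeq2 and GRCm38 are named without versions in the submitters' processing notes. Which strand setting and which annotation the counting used is not given in the sources used here. Read counts in whole numbers, not normalized, were deposited by the authors for 53700 gene IDs. The deposited normalized table holds a signal relative to gene length and to 1 factor per library made by the authors, and served as an alternative unit. Symbols came from GENCODE M21 on GRCm38 for 52147 IDs (97.1%). Columns of the Val+PA libraries carry a shortened code and were matched by it.

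Counts were fitted with edgeR 4.0.16 in R 4.3.3 (filterByExpr, TMM factors, quasi-likelihood test, two-sided, Benjamini-Hochberg over all genes tested, 0.05), with all 9 libraries (6 residual degrees of freedom) and without Val+PA 2 (5). SE was taken as the size of the log2 fold change over the root of its F statistic. An adjusted p in the report is from the 5-library edgeR fit (3 residual degrees of freedom) unless another fit is named. DESeq2 1.42.0, limma 3.58.1 (voom, also with library quality weights, and log2 of the normalized signal plus 1 or 0.1), other scalings and filters, a replicate block, a GC trend per library, and each library left out were alternatives. The GC trend was a lowess curve of span 0.3. Log2 CPM used a prior count of 2. The method was tested on simulated data. No 2 libraries had counts alike within sampling noise, with chi-square per degree of freedom of 4.43 or more within the compared groups.

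The members, lists and tests were chosen with earlier results of these data known. Named by rule were the 5 genes of smallest p in each direction in the 9-library fit with at least 2 CPM and a proper symbol, and the member of smallest p of each of 34 pathway lists without Val+PA 2. A rule for genes called without Val+PA 2 named none. All other genes were chosen after their values were seen. Genes under the count filter were left out, and 20584 IDs had no count in any library.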

Additional observations from a re-analysis of the deposited data

How the results depend on the processing

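The number of genes called was 0 with all libraries and 0 without Val+PA 2. With all libraries the count became 212 with DESeq2, 891 with library quality weights, 763 with no filter, 7 with a GC trend removed, 8 with that and a replicate block, 2 with the normalized signal and no filter, and 604 without Control 3 and Val+PA 2. Without Val+PA 2 it became 123 with DESeq2, 3 with limma-voom, 131 with quality weights, 270 with no filter, 583 with Valine and Val+PA alone, 1 with a GC trend removed, 3 with that and a replicate block, and 1 and 7 with the normalized signal plus 1, filtered and not. The cause was not tested. Leaving out each library in turn gave 0 to 0 with all libraries and 0 to 604 without Val+PA 2, where Control 3 gave 604 and Val+PA 3 gave 3. Other scalings, a filter of at least 1 CPM in 3 libraries and a threshold of 0.01 called 0 in both. The numbers of the wells pair nothing in the labels. Same-numbered Valine and Val+PA libraries correlated at 0.0601, 0.0169 and 0.0183 in their deviations, and a replicate block called 0 with all libraries and 4 without Val+PA 2. Genes without overlap numbered 3165 higher and 3096 lower without Val+PA 2, and 2126 (11.6%) and 2328 (12.7%) of 18299 with a GC trend removed, 2 alternatives added after the data were seen. Among 86 named genes, directions held in all alternatives except for Cpt1a, Fasn and Myh3. With all libraries, Cpt1a was at -0.014 with a GC trend removed and -0.021 with a block too, Fasn at -0.012 without Control 3 and Val+PA 2, and leaving out 1 library gave -0.052 to 0.10 for Cpt1a, -0.0093 to 0.47 for Fasn and -0.52 to 0.077 for Myh3. Without Val+PA 2, leaving out 1 more gave -0.052 to 0.23 for Cpt1a and -0.14 to 0.11 for Fasn. In these 6 libraries 1 count was worth at most 0.032 CPM, so counting error was small for genes of 2 CPM or more.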

Other observations

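Groups that were put together after their values were seen, and so support nothing by their counts, are given as values. Of 10 EGF receptor ligands 8 were measured, and 4 lay above the Valine values with 0 below. Beside Areg and Ereg, Hbegf measured 23.3, 23.2 and 23.1 CPM in Valine wells and 28.8, 31.8 and 27.6 CPM in Val+PA wells, and Btc, betacellulin, 11.1, 10.1 and 11 CPM against 15.4, 7.4 and 14.4 CPM, where Val+PA 2 was the lowest of the 6. Small leucine-rich proteoglycans, which bind collagen fibrils and growth factors in the matrix, lay below in 6 of 10 measured members and above in 1. Lum, lumican, measured 5.65, 6.69 and 7.47 CPM against 3.34, 0.929 and 2.81 CPM. Dcn, decorin, measured 264, 262 and 239 CPM against 208, 113 and 161 CPM, Ogn, osteoglycin, 258, 254 and 251 CPM against 188, 86 and 168 CPM, and Aspn, asporin, 8.88, 8.58 and 9.12 CPM against 6.46, 2.3 and 6.06 CPM. In these 4 genes all Val+PA wells lay below all Valine wells and Val+PA 2 was the lowest.

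Replication-dependent histone genes, whose messages are made in S phase, lay below the Valine values in 27 of 60 measured members and above in 1, with a median log2 fold change of -0.291 with all libraries and -0.375 without Val+PA 2. Hist1h2bm measured 34.6, 52.2 and 44.2 CPM against 29.3, 23.4 and 23 CPM. Single histone genes are uncertain, since near-identical copies share reads. BMP antagonists and ID factors gave 1 of 12 above, which was Grem1, and 2 below. Sfrp2, a secreted WNT modulator, measured 3.26, 3 and 3.08 CPM against 1.52, 3.04 and 1.61 CPM, and H19, an imprinted long non-coding RNA of muscle precursors, 450, 492 and 486 CPM against 332, 467 and 278 CPM. In both, Val+PA 1 and 3 lay below all Valine wells and Val+PA 2 within their range. Anxa8, an annexin, measured 14.2, 13.1 and 11.3 CPM against 40, 22.7 and 20.1 CPM, and its groups did not overlap.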
